A study of Mus musculus with 18 samples.

Results

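The spindle assembly checkpoint genes Mad1l1, Mad2l1, Mad2l2, Bub1, Bub1b, Bub3, Cdc20 and Ttk were followed through RNA-seq of the mouse arcuate nucleus. They are 8 of the 23235 gene symbols in the data. The group was chosen by measured FPKM: Mad2l1 was higher after estradiol in wild-type mice, and Bub1b was higher in oil-treated ERα knockout mice. Those differences are therefore given as descriptions, without a test. The tissue came from C57/BL females whose ovaries had been removed, in 6 groups of 3 libraries: ERKO E2, ERKO oil, KIKO E2, KIKO oil, WT E2 and WT oil. E2 mice received estradiol benzoate, in doses of 250 ng (day 5 after ovariectomy) and 1500 ng (day 6), and oil mice received oil on both days. All were killed 24 h later, having fasted for 1 h. ERKO mice are labelled as ERα knockouts and WT mice as wild type. KIKO, as the name is generally used, stands for an ERα mutated by knock-in so that it no longer binds estrogen response elements (EREs), carried over a null allele. The labels give neither the construction of these alleles, nor the ages, nor whether a library is 1 animal, so p-values measure the spread between libraries, which may be technical.

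The checkpoint holds a dividing cell in metaphase until every chromosome is attached to the spindle. At an unattached kinetochore the kinase TTK (MPS1) starts the signal, BUB1 and BUB3 dock there, and MAD1 converts MAD2 into the form that captures CDC20. MAD2, BUBR1 (the product of Bub1b) and BUB3 together hold CDC20 and so keep the anaphase-promoting complex idle. MAD2L2, also called REV7, is a relative of MAD2 that works mainly in translesion DNA synthesis and in the choice of DNA repair pathway. Most neurons of the adult arcuate nucleus no longer divide, while some glial precursors and tanycytes do. MAD2 and BUBR1 are also known to bind the insulin receptor in mouse liver, where they promote its endocytosis.

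The 250 bases before the RefSeq start of Mad2l1, Bub1b and Cdc20 (build GRCm38.p6) are shown because Mad2l1 and Bub1b are the members that differed between groups, and Cdc20 encodes the activator that the checkpoint holds back and carries both cell-cycle elements. Each is written 5′ to 3′ on the gene's strand. Capitals mark the ERE half-site GGTCA, the cell cycle homology region (TTTGAA or TTCGAA) and the CCAAT box, each searched on both strands, so that a CCAAT box also shows as ATTGG, with no overlaps among the matches shown.
Mad2l1, chr6:66534971-66535220, plus strand: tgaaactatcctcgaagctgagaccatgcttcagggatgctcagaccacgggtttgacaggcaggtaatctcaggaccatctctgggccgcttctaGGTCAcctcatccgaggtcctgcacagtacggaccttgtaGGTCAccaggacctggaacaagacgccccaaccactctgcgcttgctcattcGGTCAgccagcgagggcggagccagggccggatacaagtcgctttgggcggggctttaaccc
Bub1b, chr2:118597961-118598210, plus strand: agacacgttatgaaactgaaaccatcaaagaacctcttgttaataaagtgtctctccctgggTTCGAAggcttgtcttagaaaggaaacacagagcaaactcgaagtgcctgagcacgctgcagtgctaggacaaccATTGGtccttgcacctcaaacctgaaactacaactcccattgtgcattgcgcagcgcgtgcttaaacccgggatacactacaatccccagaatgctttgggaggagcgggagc
Cdc20, chr4:118437344-118437593, minus strand: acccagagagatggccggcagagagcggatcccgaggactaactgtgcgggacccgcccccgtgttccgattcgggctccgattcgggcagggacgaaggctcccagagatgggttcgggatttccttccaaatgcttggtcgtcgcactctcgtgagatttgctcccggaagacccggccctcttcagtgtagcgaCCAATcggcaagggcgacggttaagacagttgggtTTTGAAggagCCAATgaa
The Mad2l1 window held 3 copies of GGTCA, all on the gene strand, at 154 to 150, 114 to 110 and 62 to 58 bases before the start. At least 3 copies on either strand were found in 1.51% of 32851 RefSeq promoters, and at least 3 on the gene strand in 0.32%. Ttk also held 3 copies, of which 1 was on the gene strand. The GENCODE start of Mad2l1 lies 169 bases downstream of the RefSeq start. The full palindrome (GGTCA, any 3 bases, TGACC) was in 0 of the 8 members' windows and in 0.0639% of all promoters. GGTCA occurred in 4 members (Mad1l1, Mad2l1, Bub3 and Ttk) and in 35.2% of promoters. The cell cycle homology region, an element of genes expressed in G2 and mitosis, was in Bub1b, Bub3 and Cdc20 and in 17.1% of promoters. A CCAAT box was in 6 members, all but Mad1l1 and Mad2l1, and in 33.8% of promoters. Such a match is a string of letters, and binding was not measured. Whether reads were counted by strand is not given in the sources used here, and Mad1l1, Mad2l2, Bub3 and Cdc20 overlap other annotated genes, so their values may hold reads of those.

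Values are FPKM, the fragments of a gene per kilobase of its transcript and scaled to library size. Log2 changes, given ± SE, are of FPKM + 1 from a single limma fit of the 18 libraries, with Benjamini-Hochberg adjustment over 14776 tested genes, and a gene passes at an adjusted p under 0.05. The added 1 makes the change of a low gene smaller than the ratio of its means. Esr1, which encodes ERα, was at 0.212 to 2.39 FPKM in ERKO, 2.85 to 4.08 in KIKO and 3.45 to 11.9 in WT libraries. So it was lowest in ERKO, though not at 0. KIKO and WT overlapped with E2 and oil libraries pooled, through WT E2 1 at 3.45 FPKM. In oil, KIKO at 2.91 to 4.08 FPKM lay wholly below WT at 5.38 to 11.9 FPKM, where 21.9% of tested genes were apart. ERKO E2 3 stood apart. Its correlation with the other libraries was 0.919 to 0.954, against 0.963 to 0.995 among the other 17. It held 13107 FPKM of Avp, the vasopressin gene of magnocellular neurons, against at most 4581 in any other library, and its FPKM summed to 628541, against 418191 to 492135. The members' log2 changes that passed the threshold only without it, or changed sign by at least 1 SE, are given both ways. All 10 arcuate neuron markers, among them Kiss1, Pomc and Agrp, were above 0 in at least 1 library of every group. Pituitary marker sums ran from 2.79 to 354 FPKM within WT E2 and from 3.31 to 356 within WT oil.

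The members differed widely in level. Bub3 was highest, at 54.5 ± 3.97 FPKM over the 18 libraries (SD), and varied least, with a coefficient of variation of 7.29%. Mad2l2 (17.2 ± 3.58 FPKM), Mad1l1 (8.73 ± 1.40), Mad2l1 (6.70 ± 6.84) and Bub1b (1.94 ± 1.01) followed. Cdc20 (0.445 ± 0.157 FPKM), Ttk (0.170 ± 0.0760) and Bub1 (0.0673 ± 0.0609) had means under 0.5 FPKM and were not tested. So 5 of the 8 members entered the test. The coefficient of variation was 102% for Mad2l1 and 51.9% for Bub1b. In this bulk tissue, fewer cells of a type and less RNA per cell cannot be told apart.

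**Figure D1:**
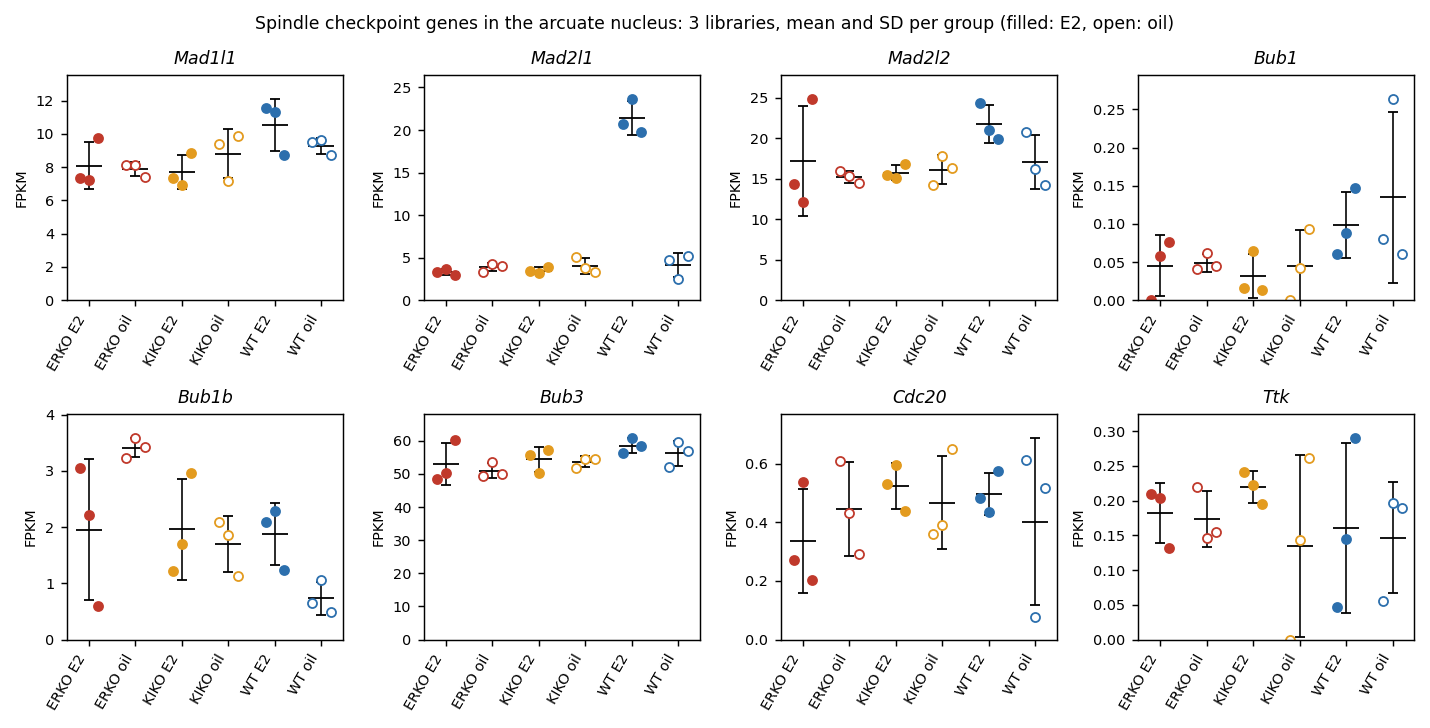
Each panel shows 1 gene, with FPKM on the vertical axis and the 6 groups along the horizontal axis. Points are the 3 libraries of a group (filled for E2, open for oil) and bars the mean and SD. WT E2 stands alone for Mad2l1 at 19.8 to 23.7 FPKM, and ERKO oil lies highest for Bub1b at 3.24 to 3.58 FPKM.

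Mad2l1 encodes MAD2, the protein that captures CDC20. In WT E2 libraries 1, 2 and 3 it stood at 20.8, 23.7 and 19.8 FPKM, against 4.73, 2.51 and 5.18 FPKM in WT oil libraries. The means were 21.4 ± 2.03 FPKM in WT E2 and 4.14 ± 1.43 FPKM in WT oil (SD, n = 3 each), a 5.17-fold difference and a log2 change of 2.16 ± 0.18. The lowest WT E2 library was 3.82 times the highest of the other 15 libraries, which lay between 2.51 and 5.18 FPKM. Every other group lay within that narrow range. Among the tested genes, 1.75% had all 3 WT E2 libraries above all 15 others. The confidence bounds in the files imply 56 to 527 fragments for Mad2l1 per library.

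In the mutants the change with E2 did not pass. In KIKO, Mad2l1 stood at 3.38, 3.15 and 3.91 FPKM after E2, against 5.02, 3.76 and 3.29 FPKM in oil. The groups overlapped, with a log2 change of −0.16 ± 0.18 (95% interval −0.55 to 0.24, adjusted p = 1 by limma). In ERKO it stood at 3.32, 3.66 and 2.92 FPKM after E2, against 3.37, 4.20 and 4.06 FPKM in oil. Here too the groups overlapped, at −0.18 ± 0.18 (95% interval −0.57 to 0.21, adjusted p = 0.601 by limma). Set against the WT E2 libraries, KIKO E2 was lower by a log2 change of −2.32 ± 0.18 and ERKO E2 by −2.38 ± 0.18. The E2 response in KIKO minus that in WT was −2.32 ± 0.26, and the response in ERKO minus that in WT was −2.35 ± 0.26. Leaving out ERKO E2 3 gave −0.12 ± 0.20 for E2 against oil in ERKO, −2.32 ± 0.20 against WT E2 and −2.28 ± 0.27 as the difference in response. The comparisons with WT share the WT E2 libraries that chose the gene and have no p here.

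Oil-treated mice are compared next. The Mad2l1 means were 4.03 ± 0.893 FPKM in KIKO oil and 4.14 ± 1.43 FPKM in WT oil (SD, n = 3 each), and the groups overlapped. That comparison shares the WT oil libraries that chose Mad2l1, so it has no p here. ERKO oil differed from KIKO oil by −0.03 ± 0.18 (adjusted p = 0.998 by limma). ERKO E2 differed from KIKO E2 by −0.06 ± 0.18 (adjusted p = 0.916 by limma), and by 0.01 ± 0.20 without ERKO E2 3. ERKO oil, at 3.88 ± 0.443 FPKM (SD, n = 3), differed from WT oil by −0.04 ± 0.18, in a comparison the choice of genes used.

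Mad1l1 encodes MAD1, the kinetochore platform that converts MAD2. It stood at 11.6, 11.3 and 8.75 FPKM in WT E2 libraries, against 9.49, 9.63 and 8.71 FPKM in WT oil libraries, a log2 change of 0.16 ± 0.14. Its KIKO E2 libraries held 7.35, 6.94 and 8.87 FPKM. KIKO E2 overlapped WT E2 and differed by −0.40 ± 0.14 (unadjusted p = 0.0121, adjusted p = 0.307 by limma). Its KIKO oil libraries held 9.42, 7.15 and 9.89 FPKM and its ERKO oil libraries 8.12, 8.13 and 7.41 FPKM. ERKO oil thus lay wholly below WT oil, at −0.21 ± 0.14.

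Mad2l2 encodes REV7. It was highest in WT E2, at 24.3, 21.0 and 19.8 FPKM, with 20.8, 16.2 and 14.2 FPKM in WT oil. These groups overlapped, and the log2 change was 0.34 ± 0.19. KIKO E2, at 15.4, 15.0 and 16.8 FPKM, lay wholly below WT E2, with a log2 change of −0.44 ± 0.19 (unadjusted p = 0.0372, adjusted p = 0.502 by limma). KIKO oil libraries held 14.2, 17.8 and 16.4 FPKM and ERKO oil libraries 16.0, 15.3 and 14.5 FPKM, both overlapping WT oil.

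For both genes the comparison of ERKO E2 with WT E2 fell on different sides of the threshold with and without the library ERKO E2 3. Mad2l2 was at 14.4, 12.2 and 24.9 FPKM in ERKO E2 libraries 1, 2 and 3, so library 3 was the highest of all 18. Mad1l1 was at 7.34, 7.21 and 9.76 FPKM in the same libraries. With all libraries, ERKO E2 differed from WT E2 by −0.38 ± 0.19 for Mad2l2 (adjusted p = 0.481 by limma) and by −0.35 ± 0.14 for Mad1l1 (adjusted p = 0.35 by limma). Without ERKO E2 3, Mad2l2 fell by 0.67 (SE 0.13, adjusted p = 0.00797 by limma) and Mad1l1 by 0.47 (SE 0.14, adjusted p = 0.0439 by limma). The means of the remaining libraries were 13.3 FPKM for Mad2l2 and 7.28 FPKM for Mad1l1 in ERKO E2, against 21.7 and 10.6 FPKM in WT E2. In that fit 1286 of the 14776 genes, 8.7%, passed, against 192 with all libraries. For E2 against oil in ERKO, Mad2l2 was at 0.10 ± 0.19 with all libraries and at −0.19 ± 0.13 without ERKO E2 3. For ERKO E2 against KIKO E2 it was at 0.06 ± 0.19, and at −0.23 ± 0.13 without that library. The part that the makeup of ERKO E2 3 plays was not tested.

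Bub1b encodes BUBR1, the checkpoint kinase-like subunit that also helps chromosomes attach. It stood at 3.24, 3.58 and 3.43 FPKM in ERKO oil libraries, against 0.641, 1.06 and 0.486 FPKM in WT oil libraries. The means were 3.41 ± 0.172 FPKM in ERKO oil and 0.730 ± 0.299 FPKM in WT oil (SD, n = 3 each), a 4.68-fold difference with a log2 change of 1.36 ± 0.29. ERKO oil lay above all the other 15 libraries, but narrowly, its lowest library being 1.06 times the highest other library, ERKO E2 1. Among tested genes, 1.04% had all 3 ERKO oil libraries above all 15 others. WT oil lay lowest, and among the libraries of the other groups the 1 exception in its range was ERKO E2 3, at 0.594 FPKM. Without each of the 6 ERKO oil and WT oil libraries in turn, the change was between 1.26 and 1.50, and in each case it no longer passed the threshold over all genes.

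KIKO oil libraries held 2.10, 1.86 and 1.13 FPKM of Bub1b, between the other genotypes. All 3 lay above WT oil, with a fold of 2.32 and a log2 change of 0.64 ± 0.29, and below ERKO oil, which was 2.01 times KIKO oil (log2 change 0.73 ± 0.29). WT E2 libraries, at 2.09, 2.28 and 1.24 FPKM, also lay wholly above WT oil, with a fold of 2.56 and a log2 change of 0.73 ± 0.29. ERKO E2 libraries went the other way. They held 3.06, 2.21 and 0.594 FPKM, wholly below ERKO oil, with a fold of 0.573 and a log2 change of −0.68 ± 0.29 (−0.29 ± 0.24 without ERKO E2 3). The response in ERKO minus that in WT was −1.41 ± 0.41, and −1.02 ± 0.32 without ERKO E2 3. All of these share the ERKO oil or WT oil libraries that chose Bub1b, so they have no p here.

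After E2 no difference in Bub1b between genotypes passed. The means were 1.95 ± 1.25 FPKM in ERKO E2, 1.96 ± 0.898 FPKM in KIKO E2 and 1.87 ± 0.553 FPKM in WT E2 (SD, n = 3 each). Without ERKO E2 3 the ERKO E2 mean was 2.635 FPKM. ERKO E2 differed from KIKO E2 by −0.06 ± 0.29, and by 0.33 ± 0.24 without ERKO E2 3. KIKO E2 libraries, at 1.22, 1.70 and 2.96 FPKM, overlapped both KIKO oil and WT E2. KIKO E2 differed from WT E2 by 0.02 ± 0.29 (95% interval −0.60 to 0.64, adjusted p = 0.988 by limma). ERKO E2 differed from WT E2 by −0.04 ± 0.29 (95% interval −0.67 to 0.58, adjusted p = 0.983 by limma), and by 0.35 ± 0.24 without ERKO E2 3 (adjusted p = 0.383 by limma). E2 against oil in KIKO gave 0.11 ± 0.29 (95% interval −0.51 to 0.73, adjusted p = 1 by limma).

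Bub3, the partner that carries BUB1 and BUBR1 to kinetochores, was between 48.4 and 60.8 FPKM in all 18 libraries. Group means ran from 50.9 ± 2.25 FPKM in ERKO oil to 58.5 ± 2.29 FPKM in WT E2 (SD, n = 3 each), and every group overlapped its neighbours in that order. Its log2 changes were between −0.15 and 0.06 in the 9 pairwise comparisons, and none passed. Without ERKO E2 3, E2 against oil in ERKO went from 0.05 ± 0.09 to −0.04 ± 0.08. ERKO E2 against WT E2 went from −0.15 ± 0.09 to −0.24 ± 0.08 (adjusted p = 0.0624 by limma without that library). The files imply 1303 to 2633 fragments for it per library.

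Bub1, Ttk and Cdc20, expressed chiefly in dividing cells, were near the floor of the data. Bub1, the kinetochore kinase, ran from 0 to 0.264 FPKM with 2 libraries listed at 0, and the files imply 5 fragments or fewer in 15 of 18 libraries. Ttk, which starts the signal, ran from 0 to 0.290 FPKM with 1 library listed at 0. Cdc20, the activator that the checkpoint holds back, ran from 0.0769 to 0.650 FPKM, with at most 21.1 implied fragments. Cdc20 was at 0.434 to 0.573 FPKM in WT E2 and 0.0769 to 0.613 FPKM in WT oil, and the groups overlapped. No group stood apart for any of the 3 in any pairwise comparison, and differences were not detectable at this depth.

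**Figure D2:**
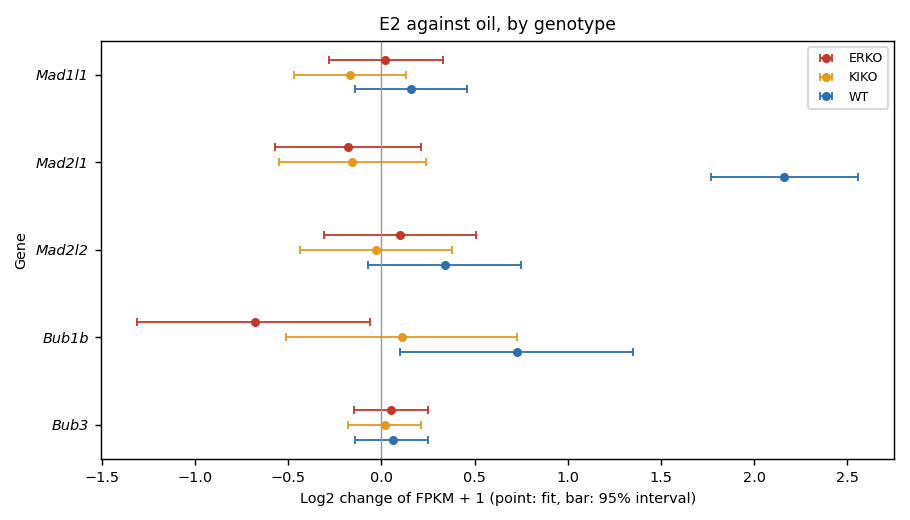
Log2 change of FPKM + 1 for E2 against oil in each genotype, by gene, with the fitted value as a point and the 95% interval as a bar. Mad2l1 in WT lies at 2.16, while its KIKO and ERKO values lie at −0.16 and −0.18.

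Across the members, E2 against oil in WT passed for 1 of the 5 tested (Mad2l1), in a comparison where 0.785% of all genes passed. The choice of genes used this comparison, so the count is a description. The median change of the 5 was 0.34, against 0.01 for all genes tested. The groups did not overlap for 2 of the 8 members, Mad2l1 and Bub1b, as for 15.8% of tested genes. In KIKO, 0 of 5 passed by limma, with 0 at an unadjusted p under 0.05, where 0.00677% of genes passed. No member's groups were apart there, against 7.41% of genes. In ERKO, 0 of 5 passed by limma, where 0% of genes passed. The ERKO oil libraries chose Bub1b, and of the other 4 members 0 had an unadjusted p under 0.05. Only Bub1b's groups were apart in ERKO, as were those of 12.3% of genes. The difference in response from WT was past the threshold for 1 member, Mad2l1, in both mutants, where 0.135% of genes passed in KIKO and 0.277% in ERKO. Both differences contain the WT libraries that chose Mad2l1, so nothing is read from these counts.

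**Figure D3:**
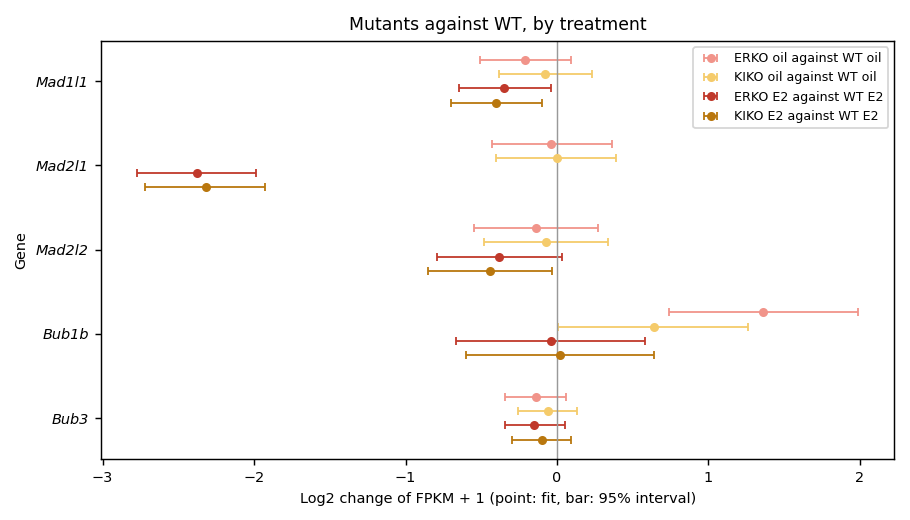
Log2 change of FPKM + 1 between genotypes, by gene, with the fitted value as a point and the 95% interval as a bar. The mutants after E2 lie at −2.38 and −2.32 against WT E2 for Mad2l1, and ERKO oil lies at 1.36 against WT oil for Bub1b.

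Between genotypes, ERKO oil against WT oil passed for 1 of 5 members (Bub1b), in a comparison where 1.43% of all genes passed. The choice used this comparison as well. Its groups did not overlap for Bub1b (higher) and Mad1l1 (lower), but 39.3% of tested genes were apart there. KIKO oil against WT oil passed for 0 of 5 by limma, where 0.0135% of genes passed. It shares WT oil libraries with the choice of Mad2l1 and Bub1b, and of the other 3 members 0 had an unadjusted p under 0.05. Bub1b alone was apart there, as were 21.9% of genes. In KIKO E2 against WT E2, 1 of 5 (Mad2l1) was past the threshold, where 0.947% of genes passed, with a median of −0.40 against 0.01 for all genes. Mad2l1 and Mad2l2 were apart there, as were 21.9% of genes. In ERKO E2 against WT E2, 1 of 5 (Mad2l1) was past the threshold, where 1.3% of genes passed, with a median of −0.35 against −0.01. Mad2l1 alone was apart, as were 11% of genes. Both counts and both medians draw on the WT E2 libraries that chose Mad2l1, so they are descriptions. ERKO oil against KIKO oil passed for 0 of 5 by limma, where 0% of genes passed. It shares the ERKO oil libraries that chose Bub1b, and of the other 4 members 0 had an unadjusted p under 0.05. Bub1b alone was apart, as were 28.1% of genes. ERKO E2 against KIKO E2 passed for 0 of 5 by limma, with 0 at an unadjusted p under 0.05, where 0.0135% of genes passed. No member was apart there, against 5.5% of genes.

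No gene of 5 lists of related genes passed with all 18 libraries in the fit. By limma the count was 0 in each of the 11 comparisons, and between 0 and 6 genes of a list had an unadjusted p under 0.05. Without ERKO E2 3, a setting tried for the lists after the data were seen, no list gene passed for E2 against oil in any genotype, but some passed between genotypes, as given with each list. Among 19 checkpoint partners, which position or regulate the 8 members, 8 were tested, and their median change for E2 against oil in WT was 0.05, with 1 at an unadjusted p under 0.05. The largest there were Birc5, of the Aurora B complex, at 0.37 ± 0.25, and the mitotic kinase Plk1 at −0.36 ± 0.18. Of 10 outer kinetochore genes 7 were tested, with a median of −0.08 and 0 at an unadjusted p under 0.05. The NDC80 complex subunits Spc25 and Spc24 were at 0.31 ± 0.18 and −0.28 ± 0.15. For ERKO oil against WT oil the largest were Zwilch, which recruits dynein and MAD1-MAD2 to kinetochores, at 0.45 ± 0.17 (adjusted p = 0.161 by limma), and Pmf1, of the MIS12 complex, at −0.54 ± 0.24 (adjusted p = 0.202 by limma). With ERKO E2 3 left out, Pmf1 fell by 0.54 (SE 0.16, adjusted p = 0.027 by limma), 1 of 7 genes in a fit where 22.5% of all genes passed.

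The anaphase-promoting complex is the target of the checkpoint. All 17 of its genes that were found, of 18 listed, were tested, and their median for E2 against oil in WT was 0.02, with 1 at an unadjusted p under 0.05. Ube2c, the ubiquitin-conjugating enzyme that feeds the complex, averaged 1.09 ± 0.208 FPKM in WT E2 and 0.366 ± 0.377 FPKM in WT oil (SD, n = 3 each). Its log2 change was 0.65 ± 0.21 (adjusted p = 0.226 by limma). For ERKO oil against WT oil, 6 of the 17 had an unadjusted p under 0.05 and none passed. Once ERKO E2 3 was left out, 3 passed as higher (Anapc1, Anapc4 and Cdc27) and 5 as lower (Anapc2, Anapc11, Anapc16, Fzr1 and Ube2s), where 22.5% of all genes passed. In that fit the catalytic subunit Anapc11 fell by 0.48 (SE 0.13, adjusted p = 0.0141 by limma) and the largest subunit's gene, Anapc1, rose by 0.39 (SE 0.08, adjusted p = 0.00491 by limma). For ERKO E2 against WT E2 in that fit, Anapc13 and Anapc16, 2 of the 17, passed as lower, where 8.7% of all genes passed. Of 25 proliferation genes 20 were tested, with a median of 0.02 and 1 at an unadjusted p under 0.05. The spindle motor Kif11 was at 0.31 ± 0.13 and the phosphatase Cdkn3 at −0.29 ± 0.29. Their best-known members were too low to test: the means over all libraries were 0.150 FPKM for Mki67, 0.243 for Top2a, 0.226 for Cdk1 and 0.107 for Ccnb1. Kif11 averaged 0.962 ± 0.0775 FPKM in WT E2 and 0.588 ± 0.181 FPKM in WT oil, and Cdk1 averaged 0.445 ± 0.240 FPKM in WT E2 and 0.196 ± 0.121 FPKM in WT oil (SD, n = 3 each).

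Among the 5 lists of related genes, the repair partners of Mad2l2 were the most one-sided for ERKO oil against WT oil. All 8 of the 8 that were found, of 10 listed, were higher in ERKO oil than in WT oil by value, with a median of 0.39 against 0.02 for all genes. All 8 were also higher in KIKO oil than in WT oil, with a median of 0.26 against 0.01 for all genes. In ERKO oil against WT oil none passed by limma, and 4 had an unadjusted p under 0.05. Without ERKO E2 3 in the fit 5 of the 8 passed as higher (Polk, Rev3l, Rif1, Rev1 and Trp53bp1), where 22.5% of all genes passed. In that fit the change of Polk was 0.69 (SE 0.11, adjusted p = 0.0019 by limma) and that of Rif1 was 0.70 (SE 0.14, adjusted p = 0.00432 by limma). For KIKO oil against WT oil in that fit Polk alone passed, at 0.51 (SE 0.11, adjusted p = 0.0323 by limma), where 1.79% of all genes passed. With all libraries, the largest were Rif1, which steers break repair, at 0.70 ± 0.25 (adjusted p = 0.14 by limma), and the translesion polymerase Polk at 0.69 ± 0.18 (adjusted p = 0.0588 by limma). Polk averaged 5.72 ± 0.296 FPKM in ERKO oil and 3.17 ± 0.309 FPKM in WT oil (SD, n = 3 each). Mad2l2 itself was at −0.14 ± 0.19 in that comparison. For E2 against oil in ERKO the same list had a median of −0.32, with 0 passing by limma and 3 at an unadjusted p under 0.05. Without ERKO E2 3 that median was −0.09, with 0 passing and 0 at an unadjusted p under 0.05.

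**Figure D4:**
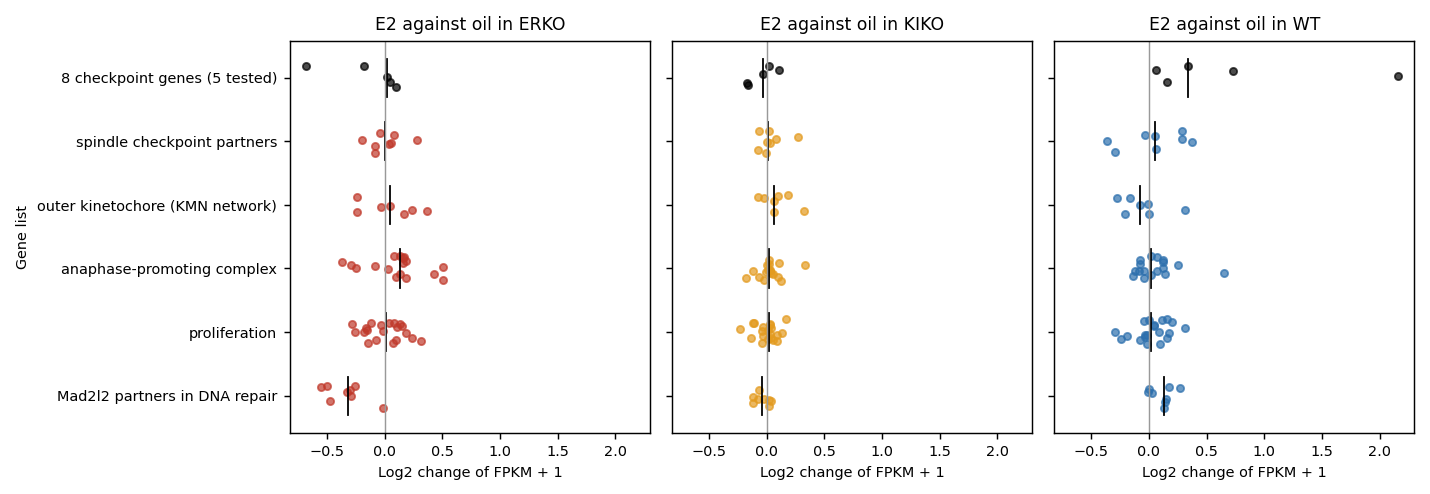
Log2 change of FPKM + 1 for E2 against oil in ERKO, KIKO and WT (panels), with a point for every tested gene, a vertical bar for the median and the lists on the vertical axis. Median changes of the 4 mitotic lists lie between −0.08 and 0.05 for E2 against oil in WT.

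Several marker lists had sums in ERKO oil, KIKO oil or WT E2 that did not overlap WT oil. Among single tested genes, 39.3% were apart in ERKO oil against WT oil and 21.9% in KIKO oil against WT oil. For E2 against oil in WT the share was 15.8%. The 10 arcuate neuron markers summed to 3050 to 3612 FPKM in WT E2 and 4588 to 5410 FPKM in WT oil, and to 2906 to 2990 FPKM in ERKO oil. KIKO oil was also below WT oil, at 3323 to 4225 FPKM. Kiss1 changed most for E2 against oil in WT, at −3.58, and 3 of the 10 markers were higher there. For ERKO oil against WT oil 0 of the 10 were higher, with Pdyn lowest at −1.14. Astrocyte markers, over 5 of 5 genes, summed to 482 to 563 FPKM in WT E2 and 484 to 515 FPKM in ERKO oil. They summed to 522 to 539 FPKM in KIKO oil and 575 to 738 FPKM in WT oil. Gfap had the largest change of the 5, at −0.79 for E2 against oil in WT and −1.06 for ERKO oil against WT oil, while the list's medians were −0.05 and −0.19 and 2 of the 5 were higher in each. Oligodendrocyte precursor markers, from cells that still divide, summed to 27.2 to 34.8 FPKM in WT E2, 22.4 to 25.2 FPKM in ERKO oil and 35.1 to 38.5 FPKM in WT oil, over 4 of 4 genes. In KIKO oil they summed to 26.3 to 26.8 FPKM. For E2 against oil in WT 0 of the 4 genes were higher, and for ERKO oil against WT oil 1 was.

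Beside Bub1b, oligodendrocyte markers summed to 1043 to 1211 FPKM in ERKO oil and 1240 to 1684 FPKM in WT oil, with all 5 genes lower by value. KIKO oil was likewise below WT oil, at 1111 to 1219 FPKM, with all 5 lower. Magnocellular and paraventricular markers, over 4 genes, summed to 1769 to 4320 FPKM in ERKO oil and 4465 to 7299 FPKM in WT oil. Of their 3 tested genes, 1 had a positive log2 change there, at 0.57, and Avp was lowest at −1.07. KIKO oil was also below WT oil for these markers, at 2657 to 4395 FPKM, with 1 of the 3 genes positive. Choroid plexus markers, over 4 of 4 genes, summed to 24.0 to 25.4 FPKM in ERKO oil and 28.0 to 35.0 FPKM in WT oil. Their genes were split, with 2 of the 4 positive for ERKO oil against WT oil and Ttr lowest at −0.81. General neuron markers, over 4 of 4 genes, were the ones with a higher sum, at 726 to 771 FPKM in ERKO oil and 641 to 699 FPKM in WT oil. KIKO oil was higher too, at 753 to 782 FPKM. By single genes 3 of the 4 were higher in ERKO oil than in WT oil. Microglial markers summed to 25.6 to 28.3 FPKM in KIKO oil and 31.4 to 36.2 FPKM in WT oil, with 1 of the 5 genes higher in KIKO oil. Tanycyte, microglial, endothelial and oligodendrocyte sums overlapped between WT E2 and WT oil. Oligodendrocyte sums were 916 to 1280 FPKM in WT E2, and all 5 genes were lower than in WT oil by value, with a median of −0.37. The part of these cell types in the changes of Mad2l1 and Bub1b was not tested.

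The genes whose profile over the 18 libraries was most like that of Mad2l1 were Greb1 (Pearson r = 0.977), Col24a1 (0.966), Fam151a (0.954), Oxtr (0.951) and Aqp5 (0.949). These are descriptions over 18 libraries that share groups and depth, and carry no p. Greb1, a widely used estrogen-induced gene, averaged 5.44 ± 0.768 FPKM in WT E2 and 0.475 ± 0.222 FPKM in WT oil (SD, n = 3 each), and was at or below 0.383 FPKM in every mutant group mean. Oxtr, the oxytocin receptor, averaged 7.49 ± 1.80 FPKM in WT E2 and 2.33 ± 0.976 FPKM in WT oil. Mad2l1 and Oxtr kept a level of at least 1.86 FPKM on average in every other group, while Greb1 and Aqp5 were below 0.5 FPKM there.

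**Figure D5:**
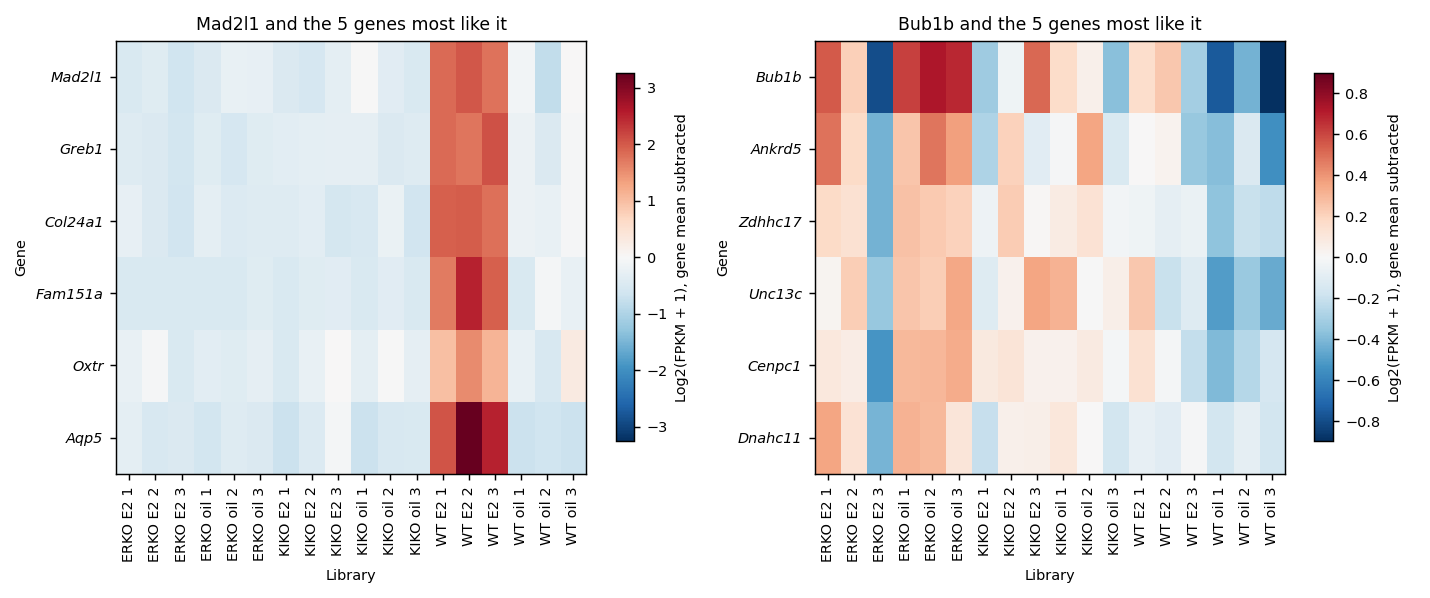
Rows are Mad2l1 or Bub1b and the 5 genes most like each, and columns are the 18 libraries, coloured by log2(FPKM + 1) with the gene's mean over the libraries subtracted (red higher, blue lower). The 3 WT E2 libraries form a red block for Mad2l1, at 19.8 to 23.7 FPKM, and the 3 ERKO oil libraries are red for Bub1b, at 3.24 to 3.58 FPKM.

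Bub1b was most like Ankrd5 (r = 0.862), Zdhhc17 (0.847), Unc13c (0.844), Cenpc1 (0.844) and Dnahc11 (0.836). Cenpc1, the inner kinetochore protein CENP-C, is the one of these with a role in mitosis. It averaged 14.8 ± 0.251 FPKM in ERKO oil and 9.63 ± 0.892 FPKM in WT oil (SD, n = 3 each). Mad1l1 was most like Cnpy3 (r = 0.914), Mad2l2 like Rps6kl1 (0.935) and Bub3 like Bag5 (0.881). Among the members, Mad1l1 and Mad2l2 had r = 0.68 (0.69 without ERKO E2 3), and Mad2l1 and Bub1b had r = 0.04. Bub1b and Esr1 had r = −0.36, and −0.83 without ERKO E2 3, while within groups it was 0.35. All of these are over 18 libraries, or 17 without ERKO E2 3, and carry no p. The r of −0.36 and −0.83 draw on the ERKO oil and WT oil libraries that chose Bub1b. Esr1 was lowest in ERKO, so nothing is read from them.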

How the data were processed

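Total RNA of microdissected arcuate nucleus was sequenced on an Illumina HiSeq2500, per the labels' protocols. The authors deposited 1 table of FPKM per library with lower and upper confidence bounds in FPKM. TopHat2 2.0, Cuffdiff and mm10 are named in the submitters' processing notes. The annotation and the strand setting are not given in the sources used here. Although mm10 is named, the deposited gene positions do not match GRCm38 for most genes, and they were not used. Of 20590 symbols on the same chromosome, 4.81% start within 1000 bases of the RefSeq start, and 0 of the 8 members do. Entries sharing a symbol were summed. The bounds imply fragment numbers that were whole within 0.05 for 73.4% to 76.1% of the genes with under 200 fragments; these are inferred and serve as a description of depth.

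Tests covered the 14776 genes averaging 0.5 FPKM or more, with 730 small RNA symbols left out. limma 3.58.1 in R 4.3.3 fitted log2(FPKM + 1) over 18 libraries and 6 group means, with trend and robust variance, two-sided tests and Benjamini-Hochberg adjustment, in 11 comparisons. The procedure was tested on simulated data. Python 3.11.15, numpy 2.4.6, pandas 2.3.3 and matplotlib 3.10.9 handled tables and figures. Promoters came from RefSeq (GRCm38.p6).

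The members and lists were chosen with earlier results of these data known. Named genes were the members, Esr1, the 2 largest changes of a list where none passed, and the 5 (Mad2l1, Bub1b) or 3 (other members) most correlated genes, without clone-named ones; of the 3 only the first is printed. Alternatives were other pseudocounts, filters, scalings and variance models, fits of the compared groups only, a replicate block, and each library left out.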

Additional observations from a re-analysis of the deposited data

Results flagged for a closer look

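The E2 response of Mad2l1 differed between genotypes. The response in KIKO minus that in WT was −2.32 ± 0.26 on the log2 scale, and the response in ERKO minus that in WT was −2.35 ± 0.26. Both values rest on the WT E2 libraries that chose the gene, so they are descriptions.

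Bub1b had values on opposite sides of oil after E2 in ERKO and in WT. All 3 ERKO E2 libraries lay below all 3 ERKO oil libraries, and all 3 WT E2 libraries lay above all 3 WT oil libraries. The response in ERKO minus that in WT was −1.41 ± 0.41. Without ERKO E2 3 it was −1.02 ± 0.32, and the ERKO change was −0.29 ± 0.24 in place of −0.68 ± 0.29. Both changes and their difference share the ERKO oil or WT oil libraries that chose the gene. They are therefore descriptions, and no test is read from them.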

How the results depend on the processing

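The log2 change of Mad2l1 for E2 against oil in WT was 1.91 to 2.40 over 16 alternatives. These reuse the libraries that chose the gene and are no sign of stability. Of 920 recomputed member changes, 905 kept direction and side of the threshold, or changed sign while not past it and moved by under 1 SE. Most were not past the threshold in the main fit, so this count is no sign of stability. In ERKO oil against WT oil, the number of members past the threshold was 0 under the replicate block, in which the change of Bub1b was 1.36. It ranged from 0 to 1 with single libraries left out, being 0 without each ERKO oil or WT oil library. With a pseudocount of 0.1 the change of Bub1b was 2.14. The choice of Bub1b used this comparison, so these counts and changes are descriptions. In ERKO E2 against WT E2, the number ranged from 1 to 3, being 3 without ERKO E2 3. The cause was not tested.

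Same-numbered libraries correlated at −0.393 to 0.526 (median −0.06, 45 pairs), with 11 pairs over 0.1. Differently numbered libraries were not set beside them, so these values cannot decide whether the numbers pair the samples. Counts of all genes past the threshold moved more widely. They ran from 71 to 397 for E2 against oil in WT (116 as reported), 0 to 3 in KIKO (1) and 0 to 1 in ERKO (0). They ran from 0 to 264 for KIKO oil against WT oil (2), 1 to 3319 for ERKO oil against WT oil (212), 55 to 596 for KIKO E2 against WT E2 (140) and 13 to 1286 for ERKO E2 against WT E2 (192). They ran from 0 to 1 for ERKO oil against KIKO oil (0) and 0 to 3 for ERKO E2 against KIKO E2 (2). The differences in response gave 7 to 42 for KIKO minus WT (20) and 18 to 94 for ERKO minus WT (41). Depth limits Bub1, Ttk and Cdc20, whose implied fragments were few.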
